A study of Mus musculus with 66 samples.

Results

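Gene expression in the nucleus accumbens (NAcc) of WT mice was compared at ZT19, 16 h after a single intraperitoneal injection of 20 mg/kg cocaine or of saline at ZT3. Zeitgeber time (ZT) counts hours from lights on, so ZT3 lies in the light, resting phase and ZT19 in the dark, active phase. The comparison holds 3 cocaine and 3 saline libraries of the 66 in the series, and 13732 of the 24138 listed genes, those with at least 1 FPKM in at least 1 of the 6. All 6 libraries came from male mice labelled wild type and C57BL/6 (C57BL/6J background in the study's methods), aged 3 to 5 months, and from tissue labelled ventral striatum. The series followed WT and iMSN-D2RKO mice every 4 h over 6 time points with poly(A) RNA-seq, and asks how a single dose of cocaine alters the daily program of transcripts and what part the dopamine D2 receptor of indirect pathway neurons has in it. The groups set beside the WT ZT19 animals were WT mice at ZT15 and ZT23 and iMSN-D2RKO mice at ZT19, each with 3 saline and 3 cocaine libraries and the same injection. In iMSN-D2RKO mice a floxed Drd2 gene is cut by Cre under the Drd1 promoter, which acts in the indirect pathway medium spiny neurons (iMSNs) because their precursors also use that promoter. Nothing in these sources says whether a library came from 1 animal or from a pool, so p-values measure the spread between libraries.

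The NAcc is built mainly of GABAergic medium spiny neurons of the direct pathway, which carry D1 receptors, and of the indirect pathway, which carry D2 and adenosine A2a receptors. Cocaine blocks the dopamine transporter, and the dopamine that then builds up drives cAMP and MAP kinase signalling in these neurons and induces immediate early genes of the Fos, Egr and Nr4a families. That first wave is known to pass within hours, and a time point late after the injection therefore follows the aftermath of the dose, while the mice are active in the dark and the molecular clock is in its night phase.

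The labelled tissue was checked with its defining markers. Ppp1r1b, a phosphatase inhibitor that defines spiny neurons, lay between 847.3 and 1495 FPKM in saline and between 714.3 and 954 FPKM in cocaine libraries, and Rgs9, Pde10a, Bcl11b and Foxp1, also markers of these cells, were not near 0 in any. The libraries of each group were uneven. A library score, the position on the leading principal axis of the deviations of libraries from their group means, took up 43.6% of that spread in 9584 genes, and by it 13 of the 66 libraries scored between 44.3 and 56.1 and the other 53 between -35.9 and 15.1. Saline replicates 1 and 2 and cocaine replicates 1 and 3 belonged to the 13, so each group mixed both kinds. Cocaine replicate 2 had the highest score of the 53, 15.1, and saline replicate 3 scored -13.8. Saline replicates 1 and 2 also held interferon-inducible transcripts and cocaine replicate 1 liver transcripts, both described with the genes they touch. Total FPKM lay between 395067 and 458223 in the 6 libraries, and the read numbers behind the values are unknown.

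Of the 13732 genes, 3 fell after cocaine at an adjusted p under 0.05 (limma on log2(FPKM + 1), Benjamini-Hochberg adjustment over all genes tested), which is 0.0218% of them, and 0 rose. All 3 encode interferon-inducible GTPases, Tgtp1, Tgtp2 and Gbp4, and the smallest adjusted p was 0.0231. Without adjustment, 397 genes were higher and 289 lower at p under 0.05, which is 2.89% and 2.1% of those tested, together 5%. The 3 cocaine libraries lay wholly above the 3 saline libraries in 694 genes (5.05%) and wholly below them in 512 genes (3.73%), together 8.78%. The median log2 fold change was 0.01 and the median standard error (SE) 0.22. With 3 against 3 libraries an exact permutation test of a single gene cannot go below a p of 0.1, so all tests of single genes are those of the fit across libraries.

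**Figure D1:**
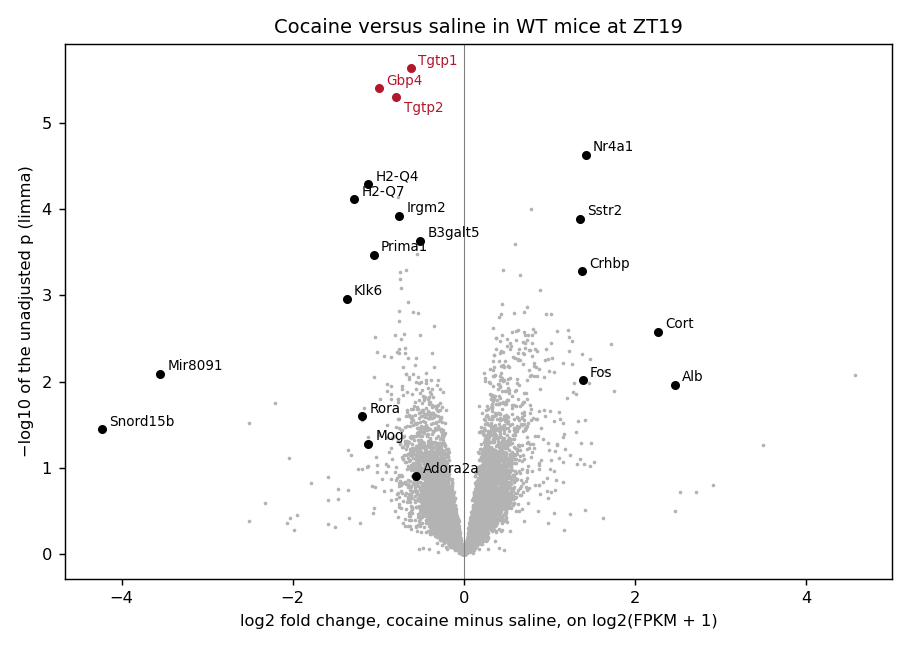
Each point is a gene, with the log2 fold change of cocaine against saline in WT mice at ZT19 on the horizontal axis and −log10 of the unadjusted limma p on the vertical axis. The 3 genes past the adjusted threshold, Tgtp1, Gbp4 and Tgtp2, stand in red at the top left, and Nr4a1, with an adjusted p of 0.0809, is the highest labelled point on the right.

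Interferon-inducible GTPases are made by cells that receive an interferon signal and act against pathogens within cells. Their promoters are known to carry 2 kinds of element, the gamma-activated site and the interferon-stimulated response element, which IRF factors bind. Promoters of Tgtp1 and Tgtp2, which fell, and of their relative Irgm2 are printed because they hold both elements side by side in the same order. Each covers 250 bases before to 50 bases after the gene's start, 5′ to 3′ on the gene's strand, from RefSeq on GRCm38.p6, and capitals mark TTCNNNGAA, the gamma-activated site, in the first run and a pair of GAAA copies set 2 bases apart, the core of the response element, in the second. They are at chr11:48992197-48992496, minus strand (Tgtp1), chr11:49064163-49064462, minus strand (Tgtp2) and chr11:58214727-58215026, plus strand (Irgm2).
Tgtp1: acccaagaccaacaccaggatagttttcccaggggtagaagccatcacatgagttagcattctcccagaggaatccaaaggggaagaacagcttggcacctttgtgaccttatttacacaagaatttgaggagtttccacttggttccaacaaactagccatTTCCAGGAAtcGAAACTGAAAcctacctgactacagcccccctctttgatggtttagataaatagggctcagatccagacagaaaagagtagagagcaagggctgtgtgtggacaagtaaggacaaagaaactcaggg
Tgtp2: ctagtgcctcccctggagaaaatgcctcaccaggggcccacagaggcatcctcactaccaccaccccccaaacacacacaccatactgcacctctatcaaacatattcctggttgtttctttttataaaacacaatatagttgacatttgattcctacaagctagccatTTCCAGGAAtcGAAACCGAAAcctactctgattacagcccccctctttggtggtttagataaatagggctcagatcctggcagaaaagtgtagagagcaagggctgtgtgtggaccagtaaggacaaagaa
Irgm2: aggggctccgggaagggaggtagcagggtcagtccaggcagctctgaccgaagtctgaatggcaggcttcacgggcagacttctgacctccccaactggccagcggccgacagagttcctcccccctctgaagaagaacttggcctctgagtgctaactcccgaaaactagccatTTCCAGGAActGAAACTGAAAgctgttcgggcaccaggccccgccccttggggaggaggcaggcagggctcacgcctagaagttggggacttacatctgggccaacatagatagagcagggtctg

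The 3 promoters share the run CTAGCCATTTCCAGGAA of 17 bases, which takes in the first element. Searched on both strands, TTCNNNGAA was in 8.47% and the GAAA pair in 3.49% of 27025 promoters of this length, and both were in 0.514%. Of 11 promoters of the interferon-inducible GTPases in the table, 6 held TTCNNNGAA, 10 held the GAAA pair and 6 held both, against 0.4% with both among 10512 promoters of tested genes. A match is a run of letters and not a measured binding site.

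Tgtp1 (chr11:48985329-48992246, GRCm38), named T-cell specific GTPase, was at 1.35, 0.974 and 0.188 FPKM in the saline libraries and at 0.0441, 0.167 and 0.247 FPKM in the cocaine libraries. Its log2 fold change was -0.62 (SE 0.12, adjusted p = 0.0231, limma). Tgtp2 (chr11:49057196-49064212) was at 1.77, 1.6 and 0.149 FPKM in saline and at 0.0675, 0.228 and 0.226 FPKM in cocaine, a log2 fold change of -0.79 (SE 0.15). The sequences of Tgtp1 and Tgtp2 are nearly the same, so how reads were split between them is uncertain. Gbp4 (chr5:105115767-105139586), a guanylate binding protein, was at 3.31, 3.23 and 0.511 FPKM in saline and at 0.562, 0.416 and 0.598 FPKM in cocaine, a log2 fold change of -0.99 (SE 0.19). In each of the 3 genes saline replicates 1 and 2 were high, while saline replicate 3 lay near or within the range of the cocaine libraries, so the groups overlapped. In all 60 other libraries of the series the highest value was 0.268 FPKM for Tgtp1, 0.571 FPKM for Tgtp2 and 1.42 FPKM for Gbp4, all below saline replicates 1 and 2. The 3 calls therefore rest on 2 libraries. With saline replicate 1 or saline replicate 2 left out, 0 genes passed the adjusted threshold, and with saline replicate 3 left out 15 did, these 3 among them.

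The family as a whole had the same pattern. Of 18 interferon-inducible GTPases 13 had enough expression to be tested, the 3 called genes among them, and all 13 were lower in cocaine. Of these, 11 reached an unadjusted p under 0.05 (2.1% of all genes). The median log2 fold change was -0.65 against 0.01 over all genes. Tgtp1, Tgtp2 and Gbp4 passed the filter of 1 FPKM only through saline libraries. For such members the filter favoured lower values in cocaine, so these counts are no test. In 11 of the 13, saline replicates 1 and 2 exceeded every one of the 60 other libraries. Irgm2, an immunity-related GTPase, was at 3.21, 3.2 and 0.94 FPKM in saline and at 1.03, 1.09 and 0.679 FPKM in cocaine (log2 fold change -0.76, adjusted p = 0.179, limma). Gbp3 was at 4.81, 5.52 and 1.76 FPKM in saline and at 1.36, 1.93 and 2.16 FPKM in cocaine. For both genes the value of saline replicate 3 was close to the cocaine values and to the median of the other libraries, 0.94 FPKM for Irgm2 and 1.7 FPKM for Gbp3. Irgm1, the member with the smallest difference, had a log2 fold change of -0.18. The list was drawn up with these values known and its counts are a description.

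**Figure D2:**
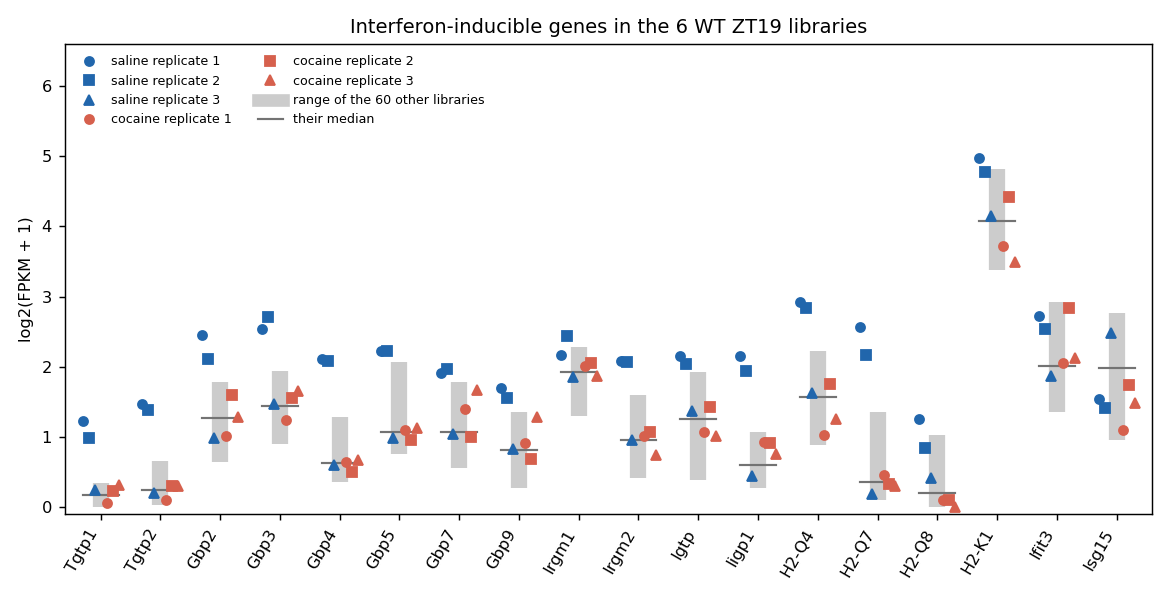
Expression as log2(FPKM + 1) of interferon-inducible genes in the 3 saline (blue) and 3 cocaine (red) libraries of WT ZT19, with grey bars for the range and lines for the median of the 60 other libraries. Saline replicates 1 and 2 (circle and square) stand above the grey bars for most GTPases and for H2-Q4 and H2-Q7, whereas saline replicate 3 (triangle) lies among the cocaine libraries.

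Genes of class I antigen presentation, which load and display peptides for T cells, were next in line. Of 14 tested, 8 were lower and 1 higher at an unadjusted p under 0.05 (2.1% and 2.89% of all genes), with a median of -0.50. This list too was drawn up with these values known, so its counts are a description and no test. The member that was higher, H2-Q10, is a class I gene of the liver and was highest in cocaine replicate 1, which held liver transcripts. H2-Q4, a non-classical class I heavy chain, was at 6.59, 6.14 and 2.07 FPKM in saline and at 1.03, 2.36 and 1.38 FPKM in cocaine (log2 fold change -1.12, adjusted p = 0.14, limma). H2-K1, a classical heavy chain, was at 30.3, 26.5 and 16.7 FPKM in saline and at 12.2, 20.3 and 10.3 FPKM in cocaine (log2 fold change -0.76). Class I genes resemble each other closely, so reads may be shared among them. B2m, their common light chain, did not follow, with 306, 311 and 56.9 FPKM in saline and 246, 218 and 242 FPKM in cocaine. Its high values were those of the libraries scoring high on the library axis and of cocaine replicate 2. Psmb8, a catalytic subunit of the immunoproteasome, was at 1.59, 1.42 and 2.88 FPKM in saline and at 0.522, 1.1 and 0.46 FPKM in cocaine, and here the groups did not overlap and saline replicate 3 was the highest.

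Other branches of the response differed less, on lists likewise drawn up with the values known. Of 9 tested genes of interferon signalling 1 was lower at an unadjusted p under 0.05 (2.1% of all genes), Irf1, a transcription factor induced by interferon gamma, at 2.89, 3.71 and 2.08 FPKM in saline and 1.34, 2.23 and 1.56 FPKM in cocaine (log2 fold change -0.51). None of 7 tested genes of the type I interferon response reached an unadjusted p under 0.05, and their median was -0.11. Ifng itself was listed at 0 in all 6 libraries. Of 12 markers of T and NK cells, cells that make interferon gamma, 10 stayed under 1 FPKM in all 6 and 3 were at 0. Cd3e reached at most 0.0711 FPKM and Cxcl9 was at 0. Ccl5, a chemokine of activated T cells and other cells, was at 1.53, 1.07 and 0.173 FPKM in saline and at 0, 0 and 0.279 FPKM in cocaine, so the same 2 saline libraries were high. The part of such cells in the calls was not tested, and in bulk tissue fewer cells of a type cannot be told apart from less RNA per cell.

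In the other comparisons the 3 genes that fell in WT mice at ZT19 had small differences. Tgtp1 and Tgtp2 were near the floor in those libraries, which left little room for a difference on log2(FPKM + 1) whatever the treatment. Gbp4 was low there too. The log2 fold change of Tgtp1 was 0.01 in iMSN-D2RKO mice at ZT19, -0.07 in WT at ZT15 and 0.02 in WT at ZT23 (SE 0.12 each), and that of Gbp4 was 0.01, -0.04 and -0.12. The difference of Tgtp1 between the genotypes was -0.62 (adjusted p = 0.23, limma), that from ZT15 -0.55 (adjusted p = 0.226) and that from ZT23 -0.64 (adjusted p = 0.9999), so none passed the threshold. These differences rest mainly on the high saline libraries of WT ZT19.

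Neuronal activity induces immediate early genes through CREB, which binds the element TGACGTCA or a part of it, TGACG, and through serum response factor. Promoters of Nr4a1, the activity gene with the smallest p, and of Fos are printed because both belong to this class and lay wholly above saline in all 3 cocaine libraries. Both are RefSeq sequences on GRCm38.p6 of the same length, at chr15:101266596-101266895, plus strand (Nr4a1) and chr12:85473640-85473939, plus strand (Fos), and capitals mark TGACG or, read on the other strand, CGTCA. The Fos window surrounds the start of the gene as annotated, whereas that of Nr4a1 lies within the annotated gene, around a transcript start downstream of the first.
Nr4a1: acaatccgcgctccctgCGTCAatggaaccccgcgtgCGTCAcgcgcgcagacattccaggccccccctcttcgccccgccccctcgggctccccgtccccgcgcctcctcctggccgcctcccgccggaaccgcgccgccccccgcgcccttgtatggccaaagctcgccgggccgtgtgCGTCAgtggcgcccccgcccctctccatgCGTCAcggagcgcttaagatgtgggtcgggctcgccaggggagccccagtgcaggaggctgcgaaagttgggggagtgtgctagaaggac
Fos: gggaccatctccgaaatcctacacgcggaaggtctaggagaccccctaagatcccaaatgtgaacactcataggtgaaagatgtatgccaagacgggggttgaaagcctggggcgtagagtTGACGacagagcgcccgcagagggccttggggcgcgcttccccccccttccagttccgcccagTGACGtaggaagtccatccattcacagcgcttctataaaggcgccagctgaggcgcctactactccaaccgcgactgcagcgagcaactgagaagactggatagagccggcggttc

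TGACG occurred 4 times in the Nr4a1 and 2 times in the Fos promoter. It was present in 15 of 24 promoters of the activity-regulated genes (62.5%), in 31.5% of the promoters of tested genes and in 21% of all in the table. The full element TGACGTCA was in 4 of the 24 (16.7%), in 3.29% of tested genes and in 1.88% of all.

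Egr and Nr4a factors were higher in the cocaine group, without passing the adjusted threshold. All 7 tested had a positive log2 fold change, with a median of 1.05, and 4 reached an unadjusted p under 0.05, as did 2.89% of all genes in this direction. Nr4a1 (chr15:101253902-101274795), an orphan nuclear receptor induced by dopamine and by cAMP, was at 24.1, 22.5 and 23.6 FPKM in saline and at 48.5, 44.6 and 123 FPKM in cocaine. The groups did not overlap, and cocaine replicate 3 stood well above the other two. The log2 fold change was 1.42 (SE 0.30, adjusted p = 0.0809, limma), and the ratio of the mean FPKM was 3.07. Without cocaine replicate 3 it was 0.96 (adjusted p = 0.301). With the library score as a covariate its adjusted p was 0.038, and over all alternatives it ran from 0.0198 (without cocaine replicate 2) to 0.999 (only the compared groups fitted). Over the 60 other libraries Nr4a1 ran from 16 to 183 FPKM with a median of 46.9 FPKM. Between 52 and 54 of them exceeded each saline library of WT ZT19, while 29, 32 and 3 exceeded the cocaine libraries, so that the saline libraries were low for the series and cocaine replicates 1 and 2 stood near its middle.

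Cocaine replicate 3 was the highest of the 6 libraries in all 7 Egr and Nr4a factors. Egr1, a zinc finger factor that tracks synaptic activity, was at 127, 115 and 92.2 FPKM in saline and at 156, 111 and 491 FPKM in cocaine, and no other library of the series reached the last value (highest 281 FPKM). Its log2 fold change was 0.88 and the groups overlapped. Nr4a3 was at 2.77, 2.56 and 3.19 FPKM in saline and at 6.69, 4.19 and 17 FPKM in cocaine, without overlap (log2 fold change 1.23). Egr3 showed nearly equal levels, with a log2 fold change of 0.03.

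Among 6 tested members of AP-1, the factor made of Fos and Jun proteins, the median was 0.39 and 1 reached an unadjusted p under 0.05 (2.89% of all genes). That member, Fos (chr12:85473890-85477274), was at 3.19, 2.17 and 1.95 FPKM in saline and at 4.29, 5.39 and 19.7 FPKM in cocaine. The groups did not overlap, again with cocaine replicate 3 far above the rest, and the log2 fold change was 1.39 (SE 0.51, adjusted p = 0.763, limma). Junb was at 24.2, 25.5 and 39.8 FPKM in saline and at 24, 46.9 and 62.2 FPKM in cocaine, and Jun had a log2 fold change of 0.29.

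Of 20 effectors induced by activity, 16 were higher in cocaine and 6 reached an unadjusted p under 0.05 (2.89% of all genes), with a median of 0.30, and cocaine replicate 3 was the highest library in 13. Nr4a1, already counted with the Egr and Nr4a factors, is on this list too and is 1 of the 6. Arc, which removes AMPA receptors from synapses, was at 27.4, 33.1 and 25.4 FPKM in saline and at 31.6, 42.7 and 142 FPKM in cocaine (log2 fold change 1.0). Here cocaine replicate 1 lay within the saline range. Rgs2, which limits G protein signalling, was at 40.1, 42.2 and 42.2 FPKM in saline and at 55.7, 54.7 and 104 FPKM in cocaine, without overlap (log2 fold change 0.70, adjusted p = 0.671, limma). Bdnf, a neurotrophin, and the MAP kinase phosphatases Dusp1 and Dusp5 had log2 fold changes of 0.81, 0.61 and 0.49. Homer1, a postsynaptic scaffold, had one of 0.11.

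**Figure D3:**
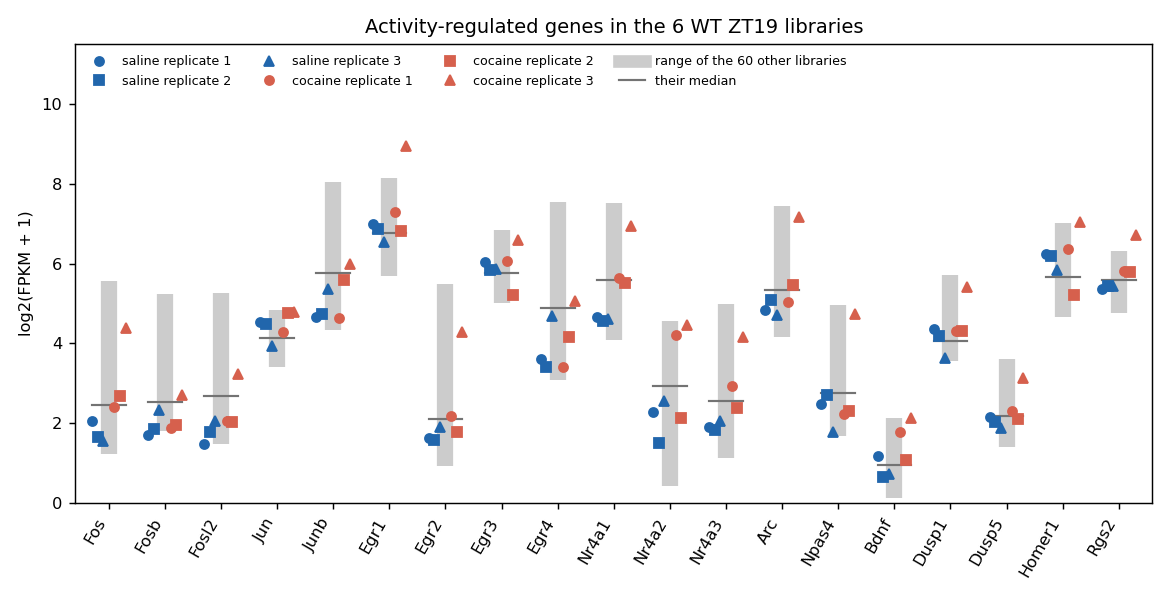
Expression as log2(FPKM + 1) of activity-regulated genes in the 3 saline (blue) and 3 cocaine (red) libraries of WT ZT19, with grey bars for the range and lines for the median of the 60 other libraries. Cocaine replicate 3 (red triangle) is the top point for nearly every gene, and for Nr4a1 all 3 cocaine points lie above all 3 saline points.

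Nr4a1, Fos and Arc were also higher after cocaine in the other groups, and the list medians were positive there. Of the 7 Egr and Nr4a factors, 7 were positive in iMSN-D2RKO mice at ZT19, 6 in WT at ZT15 and 5 in WT at ZT23. In iMSN-D2RKO mice the kind of library moved with the treatment, as given below. Nr4a1 had log2 fold changes of 1.12 in iMSN-D2RKO mice at ZT19, 1.01 in WT at ZT15 and 1.31 in WT at ZT23 (SE 0.30 each), and Fos 1.76, 0.80 and 1.56 (SE 0.51 each). For Arc the values were 1.47, 0.89 and 1.63. The median over the Egr and Nr4a factors was 0.65, 0.48 and 0.88 in these comparisons, and that over the AP-1 members 1.10, 0.17 and 0.56. No gene passed the adjusted threshold in any of the 3, where 16.5%, 5.94% and 1.21% of all genes reached an unadjusted p under 0.05. The WT ZT19 difference of Nr4a1 exceeded the others by 0.30, 0.41 and 0.11, with adjusted p-values of 0.658, 0.802 and 0.9999 (limma).

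Single genes of a mean of at least 5 FPKM were named for the smallest p-values or the largest differences without overlap, and none of those that follow passed the adjusted threshold. Sstr2, a receptor of somatostatin, was at 3.47, 4.41 and 5.58 FPKM in saline and at 15.1, 7.92 and 17.5 FPKM in cocaine (log2 fold change 1.35, SE 0.33, adjusted p = 0.179, limma). Its saline libraries were low for the series, since at least 57 of the 60 others exceeded each of them. Crhbp, which binds and neutralises corticotropin-releasing hormone, was at 2.2, 1.99 and 2.77 FPKM in saline and at 10.2, 7.43 and 5.65 FPKM in cocaine (log2 fold change 1.37). Cort, the peptide cortistatin, was at 1.47, 3.38 and 2.6 FPKM in saline and at 24, 9.47 and 15.4 FPKM in cocaine (log2 fold change 2.26, SE 0.71). Markers of cortical excitatory neurons were also higher in cocaine replicates 1 and 3, and their part in these differences was not tested.

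Perp, a membrane protein of desmosomes and a p53 target, was at 4.05, 4.55 and 4 FPKM in saline and at 7.6, 7.65 and 6.37 FPKM in cocaine, a log2 fold change of 0.66 (SE 0.18, adjusted p = 0.422, limma). The 3 saline values lay close together and all cocaine values were above them, and at most 2 of the 60 other libraries exceeded any one of the cocaine values. Ctgf, a secreted matrix protein, was at 22.3, 11.7 and 9.58 FPKM in saline and at 60.4, 26.2 and 34.5 FPKM in cocaine. St7, Naa35, a subunit of an N-terminal acetyltransferase, and Uspl1, a SUMO protease, had smaller differences without overlap, at 0.43, 0.41 and 0.34.

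Lower in all 3 cocaine libraries were B3galt5, a galactosyltransferase, and Prima1, which anchors acetylcholinesterase in membranes. B3galt5 was at 24.7, 23.7 and 25.6 FPKM in saline and at 17.3, 15.9 and 17.8 FPKM in cocaine, a log2 fold change of -0.51 (SE 0.13, adjusted p = 0.288, limma). Within each group its 3 values lay close together. Prima1 was at 15.1, 11.8 and 24.4 FPKM in saline and at 7.39, 4.68 and 11.3 FPKM in cocaine (log2 fold change -1.05, SE 0.27), and all 60 other libraries exceeded cocaine replicates 1 and 2. Klk6, a protease made by oligodendrocytes, was at 9.52, 7.92 and 7.53 FPKM in saline and at 2.24, 2.54 and 3.05 FPKM in cocaine (log2 fold change -1.37, SE 0.39). The ubiquitin ligase Fbxo32, the calcium sensor of vesicle release Syt2, the glycosyltransferase Wbscr17 and the motor protein Kifc3 also lay wholly below saline, at -0.76, -1.04, -0.74 and -0.69, and Coch, an extracellular matrix protein, at -1.02 overlapped.

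A few small RNAs had the largest differences. Snord15b was at 20.2, 20.5 and 13.3 FPKM in saline and listed at 0 in all 3 cocaine libraries, and Mir8091 was at 10.9, 11.7 and 9.6 FPKM in saline and likewise listed at 0. Such short transcripts are poorly sampled by poly(A) libraries, and in the other 60 libraries they were above 0 in 32 and 44. No fold is given against a group listed at 0.

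The core clock differed little. Of 8 repressors and 4 activators, 0 reached an unadjusted p under 0.05, and their medians were 0.10 and 0.12. Arntl, the partner of CLOCK, was at 17.1, 14.9 and 12.9 FPKM in saline and at 15, 17 and 26.2 FPKM in cocaine (log2 fold change 0.32, SE 0.22). The log2 fold change was 0.09 for Per1, 0.18 for Per2, 0.11 for Cry1 and 0.08 for Clock, with SEs from 0.15 to 0.37. For all of these the groups overlapped. Dbp, an output factor of the clock, was at 94.3, 81.3 and 145 FPKM in saline and at 64.7, 113 and 67.7 FPKM in cocaine (log2 fold change -0.38). Rora, a nuclear receptor that activates Arntl, was at 18.5, 16.4 and 5.12 FPKM in saline and at 4.92, 3.56 and 5.47 FPKM in cocaine (log2 fold change -1.19, unadjusted p = 0.0251, adjusted p = 0.912, limma), so again saline replicate 3 lay with the cocaine libraries.

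Dopamine and cAMP signalling genes, 19 tested, had a median of -0.17, and 1 was higher and 1 lower at an unadjusted p under 0.05 (2.89% and 2.1% of all genes). Drd1 was at 84.8, 79.4 and 109 FPKM in saline and at 66.6, 56.7 and 103 FPKM in cocaine (log2 fold change -0.30). Drd2 was at 279, 227 and 143 FPKM in saline and at 213, 164 and 304 FPKM in cocaine (log2 fold change 0.07). Adora2a, the adenosine receptor of iMSNs, was at 120, 92.7 and 227 FPKM in saline and at 82.4, 81.2 and 116 FPKM in cocaine (log2 fold change -0.56, SE 0.36, adjusted p = 0.938, limma). The groups overlapped for all 3 receptors.

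Striatal neuropeptides were mostly higher in cocaine. Of 12 tested, 11 had a positive log2 fold change with a median of 0.71, and 2 reached an unadjusted p under 0.05 (2.89% of all genes). Sst, the transmitter of a class of interneurons, was at 855, 1202 and 701 FPKM in saline and at 1577, 1957 and 1164 FPKM in cocaine (log2 fold change 0.77, SE 0.32). Npy, made by the same interneurons, was at 219, 237 and 175 FPKM in saline and at 381, 307 and 295 FPKM in cocaine, without overlap (log2 fold change 0.64). Crh was at 0.634, 2.45 and 2.47 FPKM in saline and at 6.98, 14.4 and 2.32 FPKM in cocaine (log2 fold change 1.46), where 1 cocaine library lay with saline. Penk, the peptide precursor of iMSNs, had a log2 fold change of 0.11, and Tac1 and Pdyn of direct pathway neurons 0.21 and 0.49. In the other 3 comparisons the median over the list was -0.18 in iMSN-D2RKO at ZT19, -0.34 in WT at ZT15 and 0.03 in WT at ZT23.

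The study also examined PPARγ, one of the nuclear receptors of the PPAR family, which bind fatty acids and pair with RXR. Its staining and chromatin assays of the protein were made at ZT7. Adora2a, Kcnd1 and Gabrd, putative PPARγ targets in the study, were measured there by quantitative PCR over the cycle, ZT19 included. In the present libraries their log2 fold changes were -0.56, -0.10 and -0.52, and the groups overlapped for each. Pparg stayed under 1 FPKM in all 6 libraries and was not tested, and the same held for Ppara. Ppard, the most abundant of the family, was at 10, 8.38 and 7.92 FPKM in saline and at 5.92, 6.75 and 6.33 FPKM in cocaine (log2 fold change -0.41, unadjusted p = 0.0264, adjusted p = 0.912, limma). Over the 10 tested genes of the PPAR and RXR system the median was -0.13 and 9 were lower. Of 22 tested PPAR target genes 2 were lower at an unadjusted p under 0.05 (2.1% of all genes), Cpt1a, which admits fatty acids to mitochondria, at -0.32 and Fabp4, a fatty acid carrier, at -0.66, and the median was -0.01. This list is not the set of PPARγ targets that the study took from binding motifs and ChIP-seq.

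Among receptors and channels, GABA-A receptor subunits had a median of 0.26 over 13 genes. Gabra5, a subunit of receptors outside the synapse, was at 18.9, 30.6 and 19 FPKM in saline and at 44.6, 34.6 and 38.3 FPKM in cocaine (log2 fold change 0.78, SE 0.28, adjusted p = 0.763, limma). Gabrd, another such subunit, was at 63.5, 56.6 and 104 FPKM in saline and at 41.5, 51.4 and 58.2 FPKM in cocaine (log2 fold change -0.52) with overlap. Of 32 potassium channel genes 25 were lower, 3 of them at an unadjusted p under 0.05 (2.1% of all genes), with a median of -0.20. Kcna1, a delayed rectifier of axons, was at 34.4, 37.5 and 29.5 FPKM in saline and at 22.1, 18.4 and 27.8 FPKM in cocaine, without overlap (log2 fold change -0.56, SE 0.21). Kcnd1 had one of -0.10. Glutamate receptors, 22 genes, had a median of 0.00 with 0 genes at an unadjusted p under 0.05.

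Heat-shock chaperones were mostly higher, 28 of 31, with a median of 0.29, and 5 reached an unadjusted p under 0.05, against 2.89% of all genes. Hspa8, the constitutive chaperone of the cytosol, was at 198, 196 and 71.5 FPKM in saline and at 235, 303 and 437 FPKM in cocaine (log2 fold change 1.16, SE 0.52). Hsp90ab1 was at 1189, 1187 and 799.9 FPKM in saline and at 1373, 1492 and 1518 FPKM in cocaine (log2 fold change 0.49). In both saline replicate 3 was the lowest library and the groups did not overlap. The list median was -0.10 in iMSN-D2RKO at ZT19, -0.15 in WT at ZT15 and 0.14 in WT at ZT23. ER stress genes (18 tested), splicing factors (31) and proteasome subunits (27) had medians of 0.23, 0.22 and 0.14. Saline replicate 3 was the highest or lowest saline library in 17, 29 and 25 of these. All 3 cocaine libraries lay above saline in 3, 0 and 1 of them (5.05% of all genes). Splicing factors summed to 2368, 2270 and 1688 FPKM in saline and to 2153, 2522 and 2584 FPKM in cocaine. Neat1, the long noncoding RNA of paraspeckles, was at 44, 42 and 30.1 FPKM in saline and at 17.7, 22.3 and 22.7 FPKM in cocaine, without overlap (log2 fold change -0.85, SE 0.29, adjusted p = 0.689, limma).

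The remaining lists lay nearer to 0. DNAJ co-chaperones had a median of 0.13, MAP kinases and DUSPs of 0.13 and cholesterol synthesis genes of 0.12. Synaptic vesicle machinery and ER to Golgi transport were at 0.05 each, prostaglandin synthesis at 0.06 and genes induced by glucocorticoids at 0.01. Slightly below 0 were opioid and cannabinoid receptors at -0.03, activin and follistatin at -0.07, caspases and the Bcl2 family at -0.08, oxidative phosphorylation at -0.08, the NAD pathway and cytosolic ribosomal proteins at -0.09 each. PAR bZIP factors, which read out the clock, were at -0.30 over 4 genes and the pair of cold-inducible RNA-binding genes at -0.27. Long noncoding RNAs were at -0.02, clock nuclear receptors at -0.03 and 2 tested genes of class II antigen presentation at -0.25. No gene of these lists passed the adjusted threshold.

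**Figure D4:**
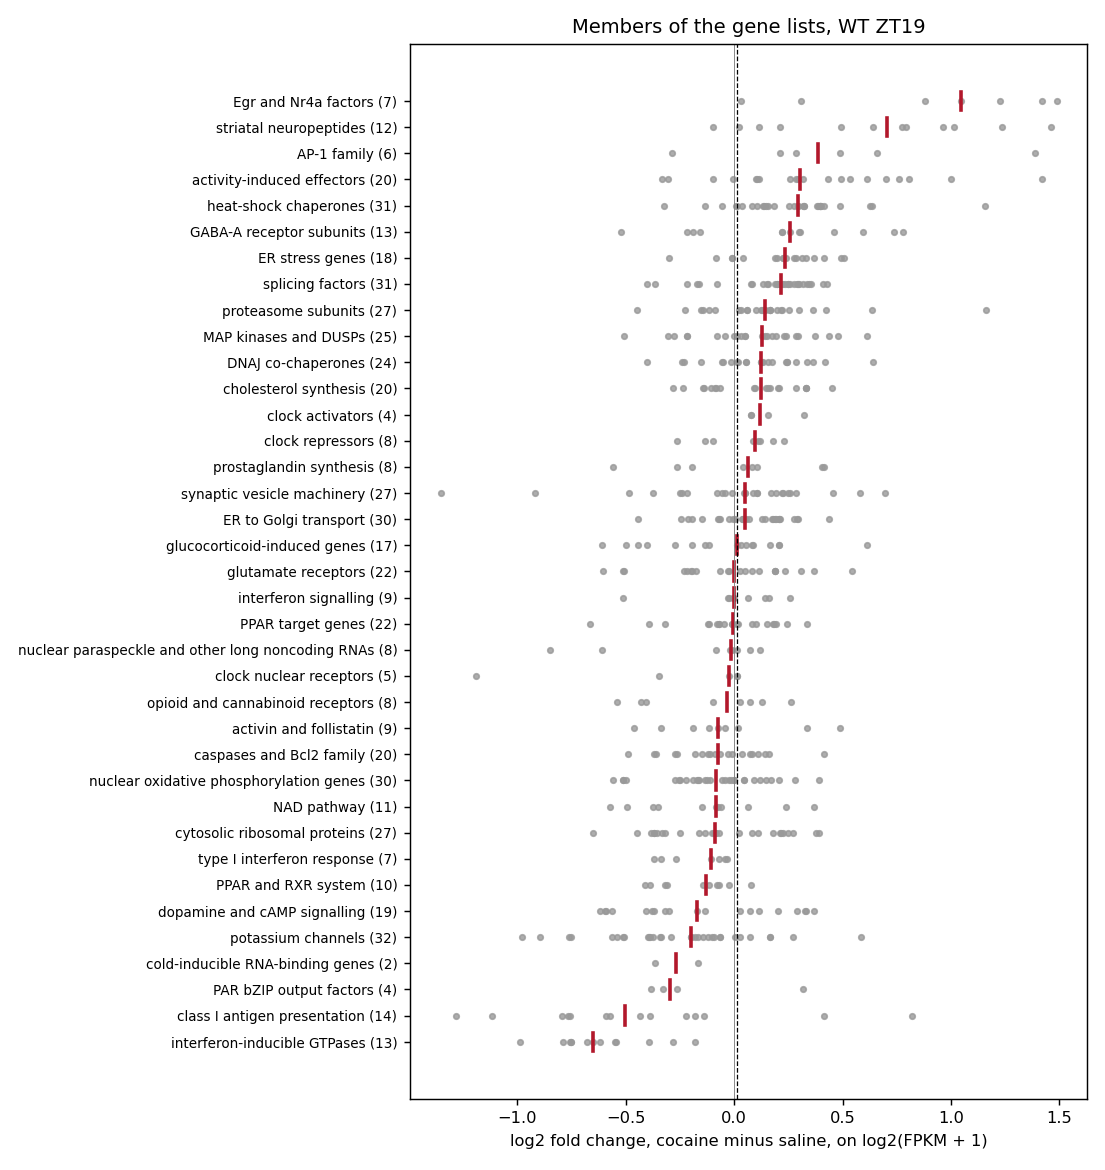
Each grey point is a tested member of a gene list, with its log2 fold change of cocaine against saline in WT mice at ZT19 on the horizontal axis, and the red bar is the list's median (number of tested members in brackets). The dashed line is the median over all genes, 0.01, and the medians run from -0.65 for interferon-inducible GTPases to 1.05 for Egr and Nr4a factors.

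Markers of cell types that a punch of the NAcc can hold also differed between the groups. All 6 oligodendrocyte markers were lower in cocaine, 5 of them without overlap (3.73% of all genes lay wholly lower), and their summed FPKM lay between 3519 and 3689 in saline and between 2069 and 2782 in cocaine. Mbp, the myelin basic protein, was at 2161, 2149 and 2153 FPKM in saline and at 1650, 1634 and 1180 FPKM in cocaine, and the median of the list was -0.60. None reached an unadjusted p under 0.05. Klk6, described above, is a gene of the same cells, and the part of oligodendrocyte content in its difference was not tested. All 6 markers of cortical excitatory neurons were higher, with a median of 0.90 and sums of 108, 43.4 and 79.1 FPKM in saline and 168, 61.1 and 187 FPKM in cocaine. Cocaine replicates 1 and 3 were the highest and cocaine replicate 2 lay within the saline range. The activity genes and neuropeptides that were higher in cocaine are also made by cortical neurons, and the part of such tissue in them was not tested.

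Spiny neuron markers were lower in cocaine for all 6, with a median of -0.34 and overlapping sums. Sums for the direct pathway were 438, 446 and 531 FPKM in saline and 450, 526 and 545 FPKM in cocaine, and those for the indirect pathway were 2248, 2002 and 2200 FPKM and 1985, 2016 and 2792 FPKM. Their medians were -0.05 and 0.00. Interneuron markers summed to 1130, 1554 and 942 FPKM in saline and 1992, 2349 and 1488 FPKM in cocaine, mainly through Sst and Npy, but 3 of the 6 were lower and the median log2 fold change of the list was -0.14. Chat and Slc18a3 of cholinergic interneurons had log2 fold changes of -0.36 and -0.50 (unadjusted p = 0.0476 for Slc18a3, limma). Pvalb of fast-spiking cells was at 33.5, 92.5 and 26.2 FPKM in saline and 7.87, 68.4 and 5.71 FPKM in cocaine. The median log2 fold change was -0.20 for astrocytes, -0.12 for oligodendrocyte precursors, -0.01 for microglia, -0.20 for vessels, -0.27 for blood, -0.18 for the septum and 0.02 for choroid plexus and ependyma.

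Cocaine replicate 1 held transcripts of hepatocytes. Summed FPKM of 25 such genes was 3.89, 3.34 and 3.56 in saline and 397, 4.79 and 3.69 in cocaine, against at most 89.7 in any of the 60 other libraries. Alb, serum albumin, was at 178 FPKM in that library and at most at 0.127 FPKM in the other 5. All 24 tested genes of the list were highest in cocaine replicate 1, and 21 were higher at an unadjusted p under 0.05 (2.89% of all genes). The list was drawn up with these values known, and members such as Alb passed the filter only through cocaine replicate 1. For such members the filter fixes the direction, so these counts are a description and no test. Apoa1 and Apoa2, apolipoproteins of the liver, were at 32.2 and 53.1 FPKM there and are among the genes without overlap between the groups. Without cocaine replicate 1, 0 genes passed the adjusted threshold. Without cocaine replicate 2 or without cocaine replicate 3, 66 genes passed each time, of which 55 of 57 and 60 of 61 with higher values were highest in cocaine replicate 1.

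**Figure D5:**
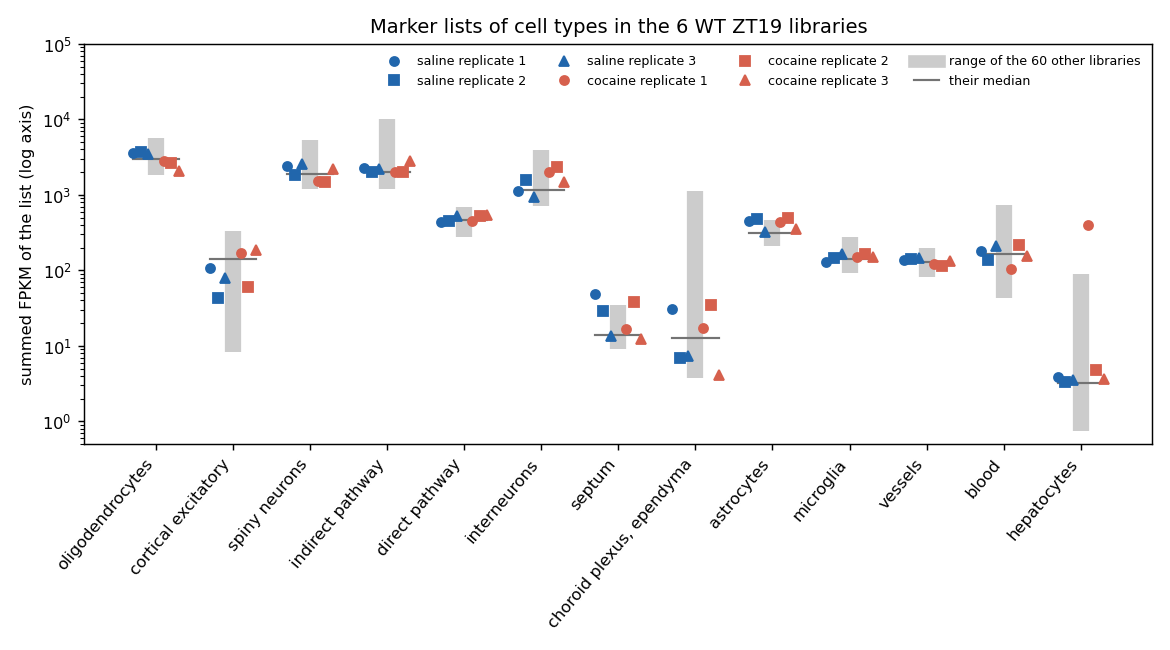
Summed FPKM (log axis) of marker lists for cell types in the 3 saline (blue) and 3 cocaine (red) libraries of WT ZT19, with grey bars for the range and lines for the median of the 60 other libraries. The 3 cocaine libraries lie below the 3 saline libraries for oligodendrocytes, and cocaine replicate 1 stands far above all others for hepatocytes, at 397.

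The effect of cocaine in WT mice at ZT19 was finally set against its effect in iMSN-D2RKO mice at ZT19 and in WT mice at ZT15 and ZT23, with a test of each difference. The 3 differences share the WT ZT19 libraries. No gene passed the adjusted threshold in any of them (limma), and the smallest adjusted p was 0.1096, 0.0965 and 0.9999. Without adjustment, the WT difference exceeded that of iMSN-D2RKO mice in 1788 genes (13%) and lay below it in 1088 genes (7.92%) at p under 0.05. Against ZT15 the counts were 660 (4.81%) and 536 (3.9%), and against ZT23 210 (1.53%) and 102 (0.743%). In iMSN-D2RKO mice at ZT19, saline replicates 1 and 3 scored high on the library axis and no cocaine library did, so the kind of library moved with the treatment there. The 3 cocaine libraries lay wholly below saline in 8.94% and wholly above it in 6.01% of genes in iMSN-D2RKO mice, in 7.8% and 4.9% at ZT15 and in 2% and 2.3% at ZT23.

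Perp had one of the smallest p-values against both iMSN-D2RKO mice and ZT15. Its cocaine libraries were higher in WT mice at ZT19, whereas in iMSN-D2RKO mice it was at 5.72, 4.21 and 5.51 FPKM in saline and at 3.5, 3.13 and 3.91 FPKM in cocaine. The log2 fold changes differed by 1.10 between genotypes (adjusted p = 0.23, limma). Cd200, a membrane protein that restrains microglia, was at 39.3, 46.2 and 38.5 FPKM in saline and at 72.2, 77.5 and 56 FPKM in cocaine in WT mice at ZT19 and had a log2 fold change of 0.71, against -0.54 in iMSN-D2RKO mice. Pid1, a regulator of insulin signalling, had log2 fold changes of 0.42 and -0.50. Both differences had an adjusted p of 0.23 as well (limma).

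Against ZT15, Prima1 was lower after cocaine at ZT19 (log2 fold change -1.05) and higher at ZT15 (0.53), a difference of -1.59 (SE 0.39, adjusted p = 0.151, limma). Pld5, a member of the phospholipase D family, differed by -1.01. The difference of Alb, 5.82, rests on cocaine replicate 1 at ZT19, and on hepatocyte transcripts in the saline libraries at ZT15, where 23 of 24 tested hepatocyte genes were lower in all 3 cocaine libraries, against 7.8% of all genes (Alb 12.7, 15.7 and 4.17 FPKM in saline, at most 0.0422 FPKM in cocaine). Against ZT23, Tfb1m, a mitochondrial methyltransferase, had log2 fold changes of 0.45 at ZT19 and -0.22 at ZT23 (adjusted p = 0.9999, limma).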

How the data were processed

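Poly(A) RNA from NAcc punches was sequenced by the authors as stranded single-end libraries, and the reads were aligned to mm10 (GRCm38) with TopHat and Bowtie2. The deposited values are FPKM (fragments per transcript length and per mapped fragments of a library) per gene, which the authors estimated with Cufflinks, Cuffmerge and Cuffquant and scaled across libraries with Cuffnorm; CASAVA 1.8.2 is named in the submitters' processing notes. The annotation release is not given in the sources used here. The table lists 24138 genes in 72 columns, since 6 libraries of ZT3 appear in 2 columns each, which leaves 66 libraries in 22 groups of 3. Of its entries 355 join several genes, 163 symbols occur more than once and no mitochondrial gene is listed. Each entry was kept as a gene.

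FPKM were tested as log2(FPKM + 1) with limma 3.58.1 in R 4.3.3 (group means of all 66 libraries, empirical Bayes moderation with a trend, 2-sided tests), so fold changes understate those of genes of low FPKM. All 66 libraries entered the fit to share an estimate of the spread. P-values were adjusted by the Benjamini-Hochberg method over the 13732 genes that reached 1 FPKM in any of the 6 libraries, and genes were called at an adjusted p under 0.05. Effects in the other groups and their differences were contrasts of the same fit. Read numbers are unknown, so precision was taken from the replicates, and relative depth, estimated from 1439 rarely detected genes, ran from 0.770 to 1.01 in the 6 libraries. Tested on simulated data for this comparison with 13732 genes, the test found 138 of 200 genes with a log2 change of 1 and called 9 others, and found 194 of 200 with a change of 2 and called 7 others. The simulated spread was independent between genes. It therefore held no library axis and no single library with liver or interferon transcripts, and these rates need not hold for the real libraries.

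The axis of the library score is the first singular vector of the deviations from group means, over genes with a mean above 5 FPKM. The score is the position of each library on it, with values centred on each gene's mean over all libraries. Differences between groups along that axis therefore enter the score. Named genes were those called, those with a mean of at least 5 FPKM that had the 8 smallest p-values in each direction or the 6 largest differences without overlap in each direction, those the study names, and the leading and most abundant members of each list. The lists of interferon, antigen presentation, T cell and hepatocyte genes, and single genes outside the rule (Psmb8, Irgm2, Arc, Egr2, Bdnf, Dusp5, Pvalb and members of those lists), were chosen after their values were seen. The comparison, the members and the lists were all chosen with earlier results of these data known. Alternatives were another pseudocount (0.1), other filters, rescaled libraries, fewer groups in the fit, a replicate block, the library score as a covariate, and leaving out libraries. Gene positions and promoters are those of RefSeq on GRCm38.p6. Tables were made with Python 3.11.15, numpy 2.4.6, pandas 2.3.3, scipy 1.17.1 and matplotlib 3.10.9. Some single genes are not reported here.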

Additional observations from a re-analysis of the deposited data

Results flagged for a closer look

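Genes whose 3 cocaine libraries lay wholly on one side of saline in WT mice at ZT19 and wholly on the other side in another group are given here with the difference between the log2 fold changes. None of these differences passed the adjusted threshold (limma, Benjamini-Hochberg adjustment). Perp was higher after cocaine in WT mice at ZT19 and lower in iMSN-D2RKO mice at ZT19, a difference of 1.10 (adjusted p = 0.23), and lower in WT mice at ZT15, a difference of 1.11 (adjusted p = 0.0965). Wbscr17, a glycosyltransferase, was lower in WT mice at ZT19 and higher in iMSN-D2RKO mice (difference -1.31) and at ZT15 (difference -1.03, adjusted p = 0.294). Fbxo32, a ubiquitin ligase of muscle and other tissues, was lower in WT mice at ZT19 and higher in iMSN-D2RKO mice, with a difference of -1.17.

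Against ZT15, Crhbp was higher at ZT19 and lower at ZT15 (difference 2.20, adjusted p = 0.125), as was Ctgf (difference 2.25, adjusted p = 0.422). Klk6 was lower at ZT19 and higher at ZT15, a difference of -1.85 (adjusted p = 0.239). Apoa1 and Apoa2 were higher at ZT19 and lower at ZT15, with differences of 3.52 (adjusted p = 0.0965) and 3.29 (adjusted p = 0.174), and both are liver transcripts that were highest in cocaine replicate 1 at ZT19. Groups of 3 libraries were not tested for a library far from the others.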

How the results depend on the processing

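The 3 calls at WT ZT19 rest on saline replicates 1 and 2. The number of genes called was 3; it was 3 with rescaled libraries and 4 with no filter (18590 genes tested), in both cases with the 3 genes included, and 2, none of them among the 3, with only the compared groups. It was 0 with a pseudocount of 0.1, 0 with only WT libraries, 0 with the replicate block, and 0 with at least 1 FPKM in at least 3 of the 6 libraries, a filter that removes the 3 genes. With the library score as a covariate 6 were called, 2 higher (BC048546 and Nr4a1) and 4 lower (Gbp4, Tgtp1, Tgtp2 and Irgm2). Of the 4 set-apart libraries alone 27 were called, 11 higher and 16 lower, and without them 1572, a comparison of 1 library with 1 that assumes each to vary like the others. Leaving out each replicate gave 0 to 66 calls. There were 66 without cocaine replicate 2 and without cocaine replicate 3, 15 without saline replicate 3 and 0 without each of the others. In the differences that follow, the fit with only the set-apart libraries was restricted in WT ZT19 alone. It left out saline replicate 3 and cocaine replicate 2 of WT ZT19 and kept all libraries of the other groups. No cocaine library of iMSN-D2RKO mice at ZT19 and no library of WT ZT15 was set apart. For the difference from iMSN-D2RKO mice, in place of 0 calls there were 485 without the set-apart libraries, 5 with only them, and 0 to 5 without 1 replicate (5 without saline replicate 3, 1 without saline replicate 2). For that from ZT15 there were 1 with a pseudocount of 0.1, 3 with no filter, 22 with the library score, 1894 without the set-apart libraries, 62 with only them, and 0 to 92 without 1 replicate (92 without cocaine replicate 3, 74 without cocaine replicate 2, 5 without saline replicate 3, 1 without cocaine replicate 1). For that from ZT23 there were 277 without the set-apart libraries, 4 with only them and 0 to 5 without 1 replicate (5 without saline replicate 3). The causes were not tested. Of 635 values of 40 genes under the alternatives, 580 kept direction and side of the threshold and 17 reversed. Without the 13 set-apart libraries these were Per2 (-0.15), Cry1 (-0.019), Per1 (-0.57), Tgtp2 (0.10), Penk (-0.041) and Clock (-0.13). With only the set-apart libraries in WT ZT19 Drd1 was at 0.013, and with the library score Clock was at -0.17 and Drd2 at -0.14. Without 1 replicate the values ran from -0.030 to 0.35 for Per2, from -0.21 to 0.31 for Per1, from -0.041 to 0.21 for Penk, from -0.24 to 0.50 for Clock and from -0.19 to 0.28 for Drd2. Same-numbered saline and cocaine libraries of WT ZT19 had correlations of their deviations of 0.17, -0.46 and -0.30 over 9558 genes. The library axis takes up much of such deviations, so the correlations cannot show whether same-numbered libraries were paired. The replicate block gave 0 calls for all 4 comparisons.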

Other observations

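Some further genes and marker sums set some of the libraries apart from the others. Clock was at 18, 20.2 and 9.38 FPKM in saline and at 21.1, 8.47 and 22.5 FPKM in cocaine, which divides the libraries that scored high on the library axis from the other 2 whatever the treatment. B2m, at 306, 311 and 56.9 FPKM in saline and 246, 218 and 242 FPKM in cocaine, set saline replicate 3 apart from the other 5. Markers of the septum summed to 48.7, 28.9 and 13.6 FPKM in saline and 16.7, 38.4 and 12.4 FPKM in cocaine, with saline replicate 1 and cocaine replicate 2 above all 60 other libraries, of which the highest reached 34.5 FPKM. Cartpt, a peptide of the accumbens and of other regions, was at 4.59, 10.4 and 6.92 FPKM in saline and at 14.1, 51.5 and 7.31 FPKM in cocaine, and Nts at 19.3, 16.7 and 5.67 FPKM and at 17.4, 58.6 and 17 FPKM, so cocaine replicate 2 was high in both.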
